A study of Mus musculus with 13 samples.

Results

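The genes described here are 9 genes that carry vitamins into or through the absorptive cells of the gut. They were chosen by name, with earlier results of these data known: Slc23a1 for vitamin C, Cubn, Amn and Tcn2 for vitamin B12, Slc46a1 for folate, Slc5a6 for biotin and pantothenate, Slc19a3 for thiamine, and Rbp2 and Lrat for vitamin A. Of the 9, 8 had a probe set (a group of array probes for 1 transcript) annotated to that symbol alone, and each of these 8 had exactly 1. All 8 passed the filter on dim genes, out of 16721 tested genes among 19938 with a probe set of their own. No value is given for Slc19a3.

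Vitamins are taken up by routes of several kinds. Water-soluble vitamins enter enterocytes through carriers in the apical membrane, while vitamin B12 is bound to intrinsic factor and internalised by a receptor, cubam, in the ileum. Vitamin A is taken up as retinol, held by a binding protein in the cytosol and esterified before it leaves the cell in chylomicrons. Such uptake is a task of the differentiated cells of the villus. Whether the genes described here are confined to those cells, or are also expressed in the dividing cells of the crypt, was not tested.

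The arrays hold enterocyte RNA from mice of the 129/SVJ background with a gut-specific knockout of casein kinase Iα (CKIα), a kinase of the complex that targets β-catenin for degradation. The 6 groups were CKIα KO and CKIα Het with p53 and p21 present, CKIα KO/p21 KO and CKIα Het/p21 KO, and CKIα KO/p53 KO and CKIα Het/p53 KO. All of them carried the gut knockout on at least 1 allele, so the Het mice, and not wild-type mice, were the comparison throughout. There were 2 arrays a group, described in the labels as biological replicates. The labels used here give neither the promoter that drives the deletion nor the animals' ages nor the stretch of gut. One more array carries conflicting labels: its title places it with CKIα KO/p53 KO, while its other labels mention no p53 knockout. It entered no main comparison, and its values are given apart.

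Some properties of the arrays bear on every value below. Median log2 intensity was between 4.96 and 5.118 on the 13 arrays. The spread between replicates over all tested genes was largest in CKIα KO/p21 KO (SD 0.341) and smallest in CKIα Het (SD 0.204), and the 2 CKIα KO/p21 KO arrays stood far apart for several of the vitamin genes. Csnk1a1, the gene of CKIα, lay between 10.55 and 10.80 on the 6 CKIα KO arrays and between 10.44 and 10.78 on the 6 CKIα Het arrays. Where its probes lie relative to the deleted part is not given in the sources used here, so it is no check of the genotype. In each group, replicate 1 had the pattern of a male and replicate 2 that of a female by Xist and Y-linked genes, so the direction of the differences was also read within each replicate number. All 15 markers of absorptive enterocytes were measured and lay above the array medians on every tested array, the lowest value being 6.18 for Mep1a.

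**Figure D1:**
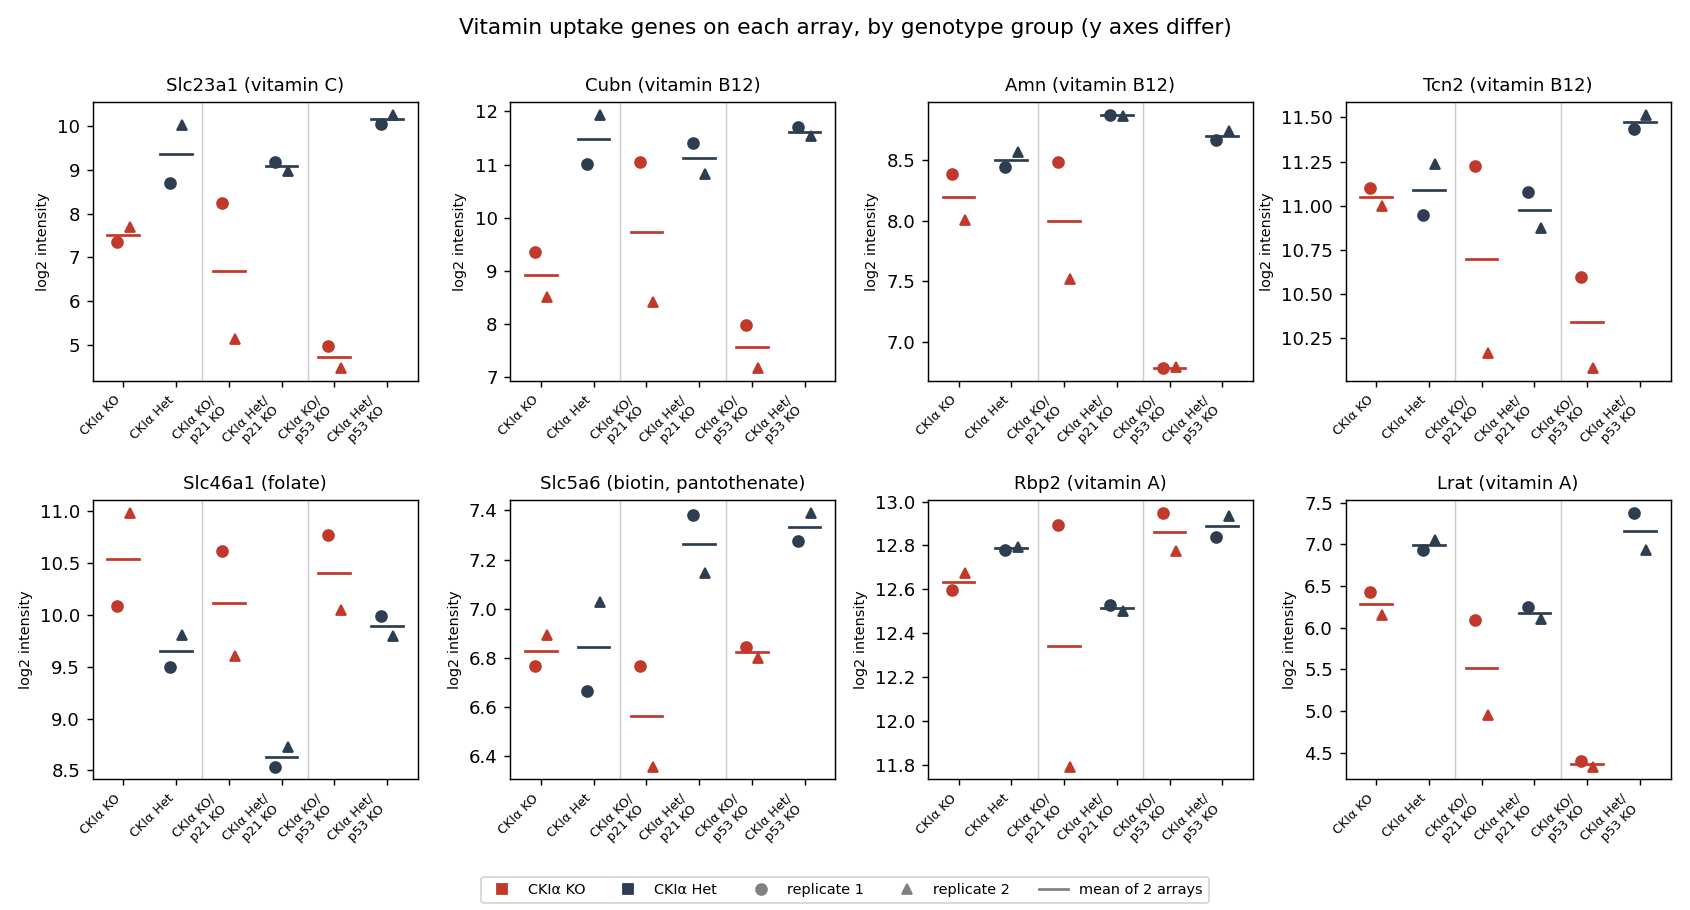
Log2 intensity (y axis) of the 8 measured vitamin uptake genes on the 12 tested arrays, by genotype group (x axis). Circles are replicate 1, triangles replicate 2 and bars the mean of 2 arrays. Slc23a1, Cubn, Amn and Lrat are lowest in CKIα KO/p53 KO, Rbp2 stays between 11.79 and 12.95 on all arrays, and the 2 CKIα KO/p21 KO arrays lie apart for Slc23a1 (8.23 and 5.12).

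Across the 3 backgrounds, loss of CKIα went with lower levels of the vitamin C carrier, the vitamin B12 receptor and the retinol esterifying enzyme, and with a higher level of the folate carrier. Averaged over the backgrounds, 5 of the 8 genes fell and 1 rose in CKIα KO at an adjusted p under 0.05 in limma. Over all 16721 tested genes 24.4% were called, 8.96% lower and 15.5% higher. Because the genes were chosen with earlier results of these data known, such shares, here and below, describe and do not test an excess. The genes that fell were Slc23a1 (log2 difference -3.23 ± 0.45 SE, adjusted p = 0.00245), Cubn (-2.66 ± 0.41, adjusted p = 0.00293), Lrat (-1.38 ± 0.18, adjusted p = 0.00211), Amn (-1.03 ± 0.15, adjusted p = 0.00264) and Slc5a6 (-0.41 ± 0.10, adjusted p = 0.0188). Slc46a1 rose by 0.96 ± 0.22 (adjusted p = 0.0124). The median log2 difference was -0.76 over the 8 genes and -0.03 over all tested genes. Tcn2 (-0.49 ± 0.17, adjusted p = 0.0686) and Rbp2 (-0.12 ± 0.16, adjusted p = 0.620) did not pass.

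For Slc23a1, Cubn, Amn, Tcn2 and Lrat the most negative difference was that of mice without p53. For Slc5a6 and Rbp2 it was that of mice without p21. Without p53, 5 of the 8 genes fell and none rose, against 17.8% of all tested genes called, 6.82% lower and 11% higher. With p21 knocked out 0 of the 8 passed, where 1.97% of all tested genes were called. With both genes present 0 of the 8 passed, where 0.0239% were called. The median over the 8 genes was -1.52 without p53, -0.68 without p21 and -0.23 with both genes present, beside -0.06, -0.01 and 0.02 over all tested genes. These 3 comparisons use separate arrays but share 1 estimate of the spread. Within replicate 1 and within replicate 2 the differences had the same sign for 7 of the 8 genes without p53, all but Rbp2 (0.11 and -0.16). The same held for 6 of 8 without p21, all but Tcn2 (0.15 and -0.71) and Rbp2 (0.36 and -0.71), and for 6 of 8 with both genes present, all but Tcn2 (0.15 and -0.23) and Slc5a6 (0.10 and -0.14). The share of all tested genes with the same sign is not given, so these counts are no measure of agreement beyond chance. Whether the CKIα effect itself differed between backgrounds is tested further on, and no member passed that test.

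**Figure D2:**
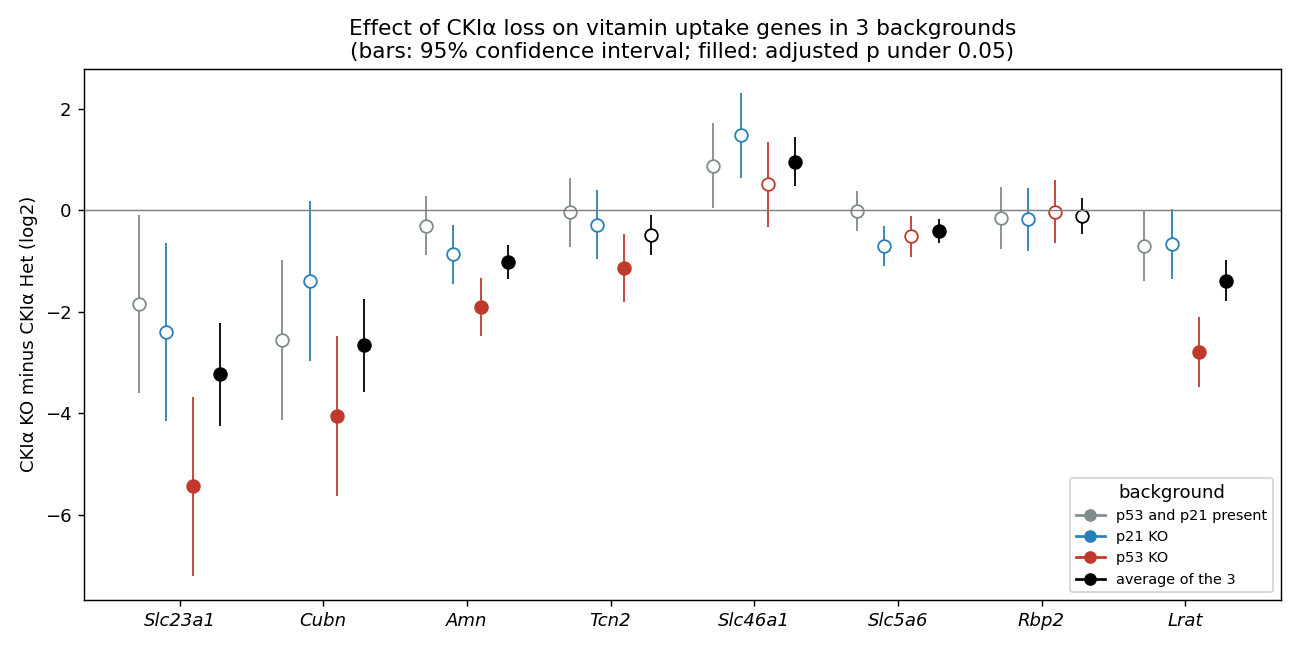
Log2 difference between CKIα KO and CKIα Het (y axis) for the 8 genes (x axis) with both genes present (grey), without p21 (blue), without p53 (red) and averaged (black). Bars are 95% confidence intervals and filled points passed an adjusted p under 0.05; without p53 these are Slc23a1, Cubn, Amn, Tcn2 and Lrat.

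Slc23a1 (probe set 10458262) encodes SVCT1, the sodium-coupled ascorbate carrier of epithelia. In contrast to humans, mice make ascorbate in the liver. Its log2 intensity was 4.96 and 4.46 in CKIα KO/p53 KO, against 10.05 and 10.27 in CKIα Het/p53 KO. Both CKIα KO/p53 KO values lay under 5.118, the highest of the array medians, and the deposited values hold no call of presence. The difference was -5.45 ± 0.79, a level 43.6-fold lower (adjusted p = 0.00756, limma), and it was -5.09 within replicate 1 and -5.81 within replicate 2.

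Without p21, Slc23a1 was 8.23 and 5.12 in CKIα KO/p21 KO, against 9.18 and 8.98 in CKIα Het/p21 KO. The groups did not overlap, but the 2 knockout arrays differed by more than the difference of the means (-2.41 ± 0.79, adjusted p = 0.112, limma). Here and below, the share of all tested genes whose pairs do not overlap within a background is not given. Such separation is therefore no measure beyond chance. In mice with both genes it was 7.34 and 7.69 in CKIα KO, against 8.70 and 10.03 in CKIα Het (-1.85 ± 0.79, adjusted p = 0.513). Taken over the 3 backgrounds, the 6 CKIα KO arrays ran from 4.46 to 8.23 and the 6 CKIα Het arrays from 8.70 to 10.27. Slc23a1 was the 1 gene of the 8 whose 6 CKIα KO and 6 CKIα Het arrays did not overlap, which 1.96% of all tested genes did in the same direction. The group means ran, from the highest, CKIα Het/p53 KO, CKIα Het, CKIα Het/p21 KO, CKIα KO, CKIα KO/p21 KO and CKIα KO/p53 KO. Of these neighbours, CKIα Het and CKIα Het/p21 KO overlapped, as did CKIα KO and CKIα KO/p21 KO.

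Cubn and Amn encode cubilin and amnionless, the partners of the cubam receptor that takes up vitamin B12 with intrinsic factor. Both fell without p53, as did Lrat below. The 250 bases before the annotated start of these 3 genes are shown because they are the genes of the 5 that fell together without p53 for which the RefSeq promoter table (GRCm38.p6) held an entry. Letters are 5′ to 3′ on the gene's strand, and capitals mark a match to a searched motif.
Cubn, chr2:13491877-13492126, minus strand: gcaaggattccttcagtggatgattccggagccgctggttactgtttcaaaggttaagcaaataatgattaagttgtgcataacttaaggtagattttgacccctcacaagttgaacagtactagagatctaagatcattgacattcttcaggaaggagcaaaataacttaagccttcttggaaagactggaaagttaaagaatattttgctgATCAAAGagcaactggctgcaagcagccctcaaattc
Amn, chr12:111270846-111271095, plus strand: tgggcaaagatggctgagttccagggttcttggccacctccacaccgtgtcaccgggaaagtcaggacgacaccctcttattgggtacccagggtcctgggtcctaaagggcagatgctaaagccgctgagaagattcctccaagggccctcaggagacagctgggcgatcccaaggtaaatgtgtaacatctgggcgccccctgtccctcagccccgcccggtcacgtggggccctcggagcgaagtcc
Lrat, chr3:82903975-82904224, minus strand: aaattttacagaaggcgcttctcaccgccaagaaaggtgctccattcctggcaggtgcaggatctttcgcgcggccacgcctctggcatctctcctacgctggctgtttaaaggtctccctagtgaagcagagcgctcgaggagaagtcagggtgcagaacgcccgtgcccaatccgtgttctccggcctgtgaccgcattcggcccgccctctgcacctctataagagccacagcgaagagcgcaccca
Motifs were searched by exact letters on both strands of the table's windows, which reach 250 bases before and 50 after each start. Among 32851 promoters, the HNF4 motif CAAAGTCCA was found in 0.475% and the CDX motif TTTATG in 11.9%. The GATA motif AGATAA was found in 11.2%. The TCF motif CTTTGAT was found in 3.73%, and the palindromic HNF1 motif in 0.00913%. In the 7 promoters listed for 6 of the 9 genes there were 2 matches. The TCF motif lay on the opposite strand of Cubn, with its leftmost base at -37 from the start, and the GATA motif on the opposite strand of Rbp2 at -43. A match is a description of letters and not of binding.

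Cubn (probe set 10480155) was 7.98 and 7.16 in CKIα KO/p53 KO, against 11.70 and 11.53 in CKIα Het/p53 KO. All 4 values were well apart by group, and the level was 16.6-fold lower (-4.05 ± 0.71, adjusted p = 0.00913, limma). With both genes present it was 9.34 and 8.51 in CKIα KO, against 11.01 and 11.94 in CKIα Het, a difference of -2.55 ± 0.71 whose adjusted p was 0.286. This was the most negative difference among the 8 genes in that background, and its unadjusted p was 0.00491. Without p21 the values were 11.05 and 8.41 in CKIα KO/p21 KO, against 11.41 and 10.83 in CKIα Het/p21 KO. The first of these knockout arrays lay inside the range of the Het pair (-1.39 ± 0.71, adjusted p = 0.276).

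Amn (probe set 10398635) spanned less than its partner. It was 6.79 on both CKIα KO/p53 KO arrays, against 8.66 and 8.74 in CKIα Het/p53 KO, which is 3.75-fold lower (-1.91 ± 0.26, adjusted p = 0.00689, limma). With p21 knocked out it was 8.48 and 7.52 in CKIα KO/p21 KO, against 8.87 and 8.86 in CKIα Het/p21 KO (-0.87 ± 0.26, adjusted p = 0.0934). In CKIα KO with p53 and p21 present it was 8.38 and 8.002, against 8.44 and 8.56 in CKIα Het. That last difference, -0.31 ± 0.26, had a 95% interval from -0.89 to 0.28.

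Tcn2 (probe set 10383799) encodes transcobalamin II, which carries vitamin B12 in plasma after it leaves the enterocyte. It fell without p53, with 10.60 and 10.08 in CKIα KO/p53 KO, against 11.44 and 11.52 in CKIα Het/p53 KO (-1.14 ± 0.30, adjusted p = 0.0307, limma). This call was lost when any 1 of these 4 arrays was left out, at adjusted p between 0.0501 and 0.166. Where p53 and p21 were present it was 11.10 and 10.999 in CKIα KO and 10.95 and 11.23 in CKIα Het, and the knockout values lay inside the Het range. Without p21 it was 11.23 and 10.17 in CKIα KO/p21 KO and 11.08 and 10.87 in CKIα Het/p21 KO. Here the knockout pair enclosed the Het pair (-0.28 ± 0.30, 95% interval -0.95 to 0.39).

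Slc46a1 (probe set 10379184), the proton-coupled folate transporter of the proximal gut, was the 1 gene of the 8 with a positive difference in every background. It was 10.62 and 9.60 in CKIα KO/p21 KO, against 8.54 and 8.73 in CKIα Het/p21 KO. The difference of 1.48 ± 0.38 had an adjusted p of 0.0667 in limma. Where both genes were present it was 10.09 and 10.98 in CKIα KO, against 9.50 and 9.81 in CKIα Het (0.88 ± 0.38, adjusted p = 0.516). Without p53 it was 10.77 and 10.04 in CKIα KO/p53 KO, against 9.99 and 9.80 in CKIα Het/p53 KO (0.52 ± 0.38, adjusted p = 0.358). None of these 3 passed alone, and its call rests on the average over backgrounds. Its lowest group was CKIα Het/p21 KO, with a mean of 8.63, but its difference from CKIα Het did not pass (adjusted p = 0.906, limma).

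Slc5a6 (probe set 10529052) encodes the sodium-dependent multivitamin transporter for biotin and pantothenate. It was 6.77 and 6.36 in CKIα KO/p21 KO, against 7.38 and 7.14 in CKIα Het/p21 KO (-0.70 ± 0.18, adjusted p = 0.0673, limma). Without p53 it was 6.85 and 6.80 in CKIα KO/p53 KO, against 7.28 and 7.39 in CKIα Het/p53 KO (-0.51 ± 0.18, adjusted p = 0.0740). Neither difference passed. The groups did not overlap in either background, but the share of all tested genes for which this holds is not given. Its values with both genes present were 6.77 and 6.89 in CKIα KO and 6.66 and 7.03 in CKIα Het, with the knockout pair inside the Het range (-0.02 ± 0.18, 95% interval -0.42 to 0.38).

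The vitamin A genes went separate ways. Lrat (probe set 10498978), lecithin retinol acyltransferase, esterifies retinol for packing into chylomicrons. It was 4.40 and 4.33 in CKIα KO/p53 KO, against 7.38 and 6.94 in CKIα Het/p53 KO. The level was 6.92-fold lower (-2.79 ± 0.31, adjusted p = 0.00427, limma), the smallest adjusted p of the 8 genes, and both knockout values were below the array medians. Lrat with both genes present was 6.42 and 6.15 in CKIα KO, against 6.93 and 7.05 in CKIα Het (-0.70 ± 0.31, adjusted p = 0.534). Without p21 it was 6.09 and 4.95 in CKIα KO/p21 KO, against 6.25 and 6.11 in CKIα Het/p21 KO (-0.66 ± 0.31, adjusted p = 0.231). Only the difference without p53 passed. In each background the knockout pair lay below its Het pair, but the share of all tested genes for which this holds is not given.

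Rbp2 (probe set 10588043), the cellular retinol-binding protein of enterocytes that hands retinol to LRAT, had no difference that passed in any background. It was 12.95 and 12.77 in CKIα KO/p53 KO and 12.84 and 12.94 in CKIα Het/p53 KO, where the groups overlapped (-0.03 ± 0.28, adjusted p = 0.956, limma). The 95% interval of that difference, -0.65 to 0.59, does not reach the size of the Lrat difference. Where both genes were present Rbp2 was 12.60 and 12.67 in CKIα KO and 12.78 and 12.79 in CKIα Het (-0.15 ± 0.28, adjusted p = 0.934). Without p21 it was 12.89 and 11.79 in CKIα KO/p21 KO and 12.53 and 12.50 in CKIα Het/p21 KO (-0.17 ± 0.28, adjusted p = 0.785). Its 6 group means spanned 0.55 on the log2 scale, the smallest span of the 8 genes. Rbp2 lay high on the intensity scale, and whether the arrays read differences in full at that level was not tested.

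Some of these counts turned on single arrays. Where both genes were present, 4 of the 8 and 1520 of all genes had an unadjusted p under 0.05 in limma. Without p21, 4 of the 8 and 3881 of all genes had one. When CKIα KO/p21 KO replicate 1 was left out, 7 of the 8 were called lower without p21, all but Slc46a1, beside 1696 genes higher and 1082 lower among 16705. The lone remaining array is then assumed to vary like the other groups. Without p53, leaving out CKIα Het/p53 KO replicate 1 left 0 of the 8 called, with adjusted p between 0.0616 and 0.0649 for Lrat, Slc23a1, Amn and Cubn, and 10 genes higher and 10 lower among 16626. Leaving out CKIα KO/p53 KO replicate 2 left 3 called, Slc23a1, Amn and Lrat, with 159 genes higher and 90 lower among 16678, against 1841 and 1140 with all 12 arrays. The 5 differences called without p53 stayed negative in both of these fits, and that of Slc23a1 was -5.56 and -5.20. In the background with both genes, leaving out either CKIα KO/p21 KO array left 1 of the 8 called lower, beside 43 genes higher and 41 lower over all genes. In the average over backgrounds, the Slc5a6 call was lost without CKIα Het replicate 2 (adjusted p = 0.0547) and without CKIα Het/p53 KO replicate 2 (adjusted p = 0.0511).

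The size of the CKIα effect was then compared between backgrounds. For the mice without p53 against those with both genes, 0 of the 8 genes passed (0.0179% of all genes called), while 4 had an unadjusted p under 0.05 in limma, as did 2485 of all genes. The differences of differences were -3.60 ± 1.11 for Slc23a1 (adjusted p = 0.252), -2.09 ± 0.43 for Lrat (adjusted p = 0.170), -1.60 ± 0.37 for Amn (adjusted p = 0.213) and -1.10 ± 0.43 for Tcn2 (adjusted p = 0.288). For Cubn it was -1.497 ± 1.00 (adjusted p = 0.492), with an interval from -3.73 to 0.74. The other values were -0.49 ± 0.25 for Slc5a6, -0.37 ± 0.53 for Slc46a1 and 0.12 ± 0.39 for Rbp2. With either CKIα KO/p21 KO array left out, 3 of the 8 passed this test as lower, and over all genes 142 passed as higher and 102 as lower. For the mice without p21 against those with both genes 0 of 8 passed (0% of all genes). An unadjusted p under 0.05 in limma was found for 1 of the 8 and 1359 of all genes. For the mice without p53 against those without p21, 4 of the 8 and 1457 of all genes had an unadjusted p under 0.05. In that test 0 of 8 passed (0.012%). Without CKIα KO/p21 KO replicate 2, 4 of the 8 passed it as lower, and over all genes 32 passed as higher and 96 as lower. With all 12 arrays, no member passed the test of a larger CKIα effect without p53.

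Within CKIα KO gut, the p53 knockout was compared with p53 present. Lrat (-1.92 ± 0.31, adjusted p = 0.0440, limma) and Amn (-1.40 ± 0.26, adjusted p = 0.0488) were lower in CKIα KO/p53 KO, 2 of 8, against 0.694% of all genes called and 0.227% called lower. For Lrat the arrays were 4.40 and 4.33 in CKIα KO/p53 KO, against 6.42 and 6.15 in CKIα KO. For Amn they were 6.79 on both CKIα KO/p53 KO arrays, against 8.38 and 8.002 in CKIα KO. Slc23a1 (-2.80 ± 0.79, adjusted p = 0.0874), Cubn (-1.36 ± 0.71, adjusted p = 0.290) and Tcn2 (-0.71 ± 0.30, adjusted p = 0.204) did not pass, nor did Slc46a1 (-0.13 ± 0.38), Slc5a6 (-0.01 ± 0.18) and Rbp2 (0.23 ± 0.28). Both calls sat near the threshold. Both were lost when the array with conflicting labels was added to either group. Both were also lost when any 1 tested array was left out, other than CKIα KO replicate 2, which left Lrat called, and the CKIα KO/p21 KO arrays. With either CKIα KO/p21 KO array left out, 4 of the 8 were called lower, and over all genes 910 were called higher and 538 lower.

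The other genotype comparisons gave no call among the 8. For CKIα KO/p21 KO against CKIα KO the differences ran from -0.84 to 0.80 (0.0359% of all genes called). There 1 of the 8 and 2005 of all genes had an unadjusted p under 0.05 in limma. For CKIα KO/p53 KO against CKIα KO/p21 KO the differences ran from -2.16 to 0.52 (0.329% of all genes called). There 4 of the 8 and 1507 of all genes had an unadjusted p under 0.05. With CKIα KO/p21 KO replicate 1 left out, 3 of the 8 were lower in CKIα KO/p21 KO than in CKIα KO, beside 761 genes higher and 387 lower over all genes. In the same fit 1 of the 8 was higher in CKIα KO/p53 KO than in CKIα KO/p21 KO, beside 18 higher and 32 lower over all genes. With replicate 2 left out instead, 4 of the 8 were lower in CKIα KO/p53 KO than in CKIα KO/p21 KO, beside 64 higher and 157 lower over all genes. In Het gut, p53 KO against p53 present gave differences from 0.10 to 0.79, all 8 above 0 (0% of all genes called). There 1 of the 8 and 941 of all genes had an unadjusted p under 0.05. In Het gut, p21 KO against p21 present gave -1.02 to 0.42 (0.00598% of all genes called). There 3 of the 8 and 837 of all genes had an unadjusted p under 0.05.

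The array with conflicting labels gave 5.84 for Slc23a1, 8.69 for Cubn, 7.26 for Amn and 5.20 for Lrat. Each of these lay between the CKIα KO/p53 KO pair and the CKIα KO pair, except Cubn, which fell inside the CKIα KO pair. It gave 10.80 for Tcn2, 10.50 for Slc46a1, 6.63 for Slc5a6 and 12.58 for Rbp2.

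Without p53, markers of absorptive enterocytes and of the crypt moved as well. The mean log2 intensity over the 15 absorptive enterocyte markers was 11.08 and 10.65 in CKIα KO/p53 KO, against 12.14 and 12.22 in CKIα Het/p53 KO. Of the 15, 6 were lower at an adjusted p under 0.05 in limma, beside 6.82% of all tested genes. The median difference over the 15 was -0.66, and the members moved unevenly. Lactase (Lct) was 8.47 and 6.84 in CKIα KO/p53 KO, against 12.27 and 12.17 in CKIα Het/p53 KO. The apolipoprotein gene Apoa4 was 13.51 and 13.57 in CKIα KO/p53 KO, against 13.80 and 13.68 in CKIα Het/p53 KO. The mean over 8 crypt and proliferation markers was 8.41 and 7.88 in CKIα KO/p53 KO, against 7.54 and 7.60 in CKIα Het/p53 KO. Of these 8, 4 were higher, beside 11% of all tested genes. The crypt mean was 7.84 and 8.38 in CKIα KO/p21 KO, against 7.75 and 7.34 in CKIα Het/p21 KO. There 1 of the 8 was higher, beside 1.97% of all tested genes called in either direction. With both genes present the crypt mean was 7.28 and 7.31 in CKIα KO, against 7.61 and 7.76 in CKIα Het, and 0 of the 8 passed. In CKIα KO/p21 KO the absorptive mean was 11.9998 on replicate 1 and 10.83 on replicate 2, and all 8 vitamin genes were higher on replicate 1 than on replicate 2 as well, against 11.88 and 11.93 in CKIα Het/p21 KO. With both genes present the absorptive mean was 11.63 to 11.86 in CKIα KO and 11.80 to 12.18 in CKIα Het. The mean over 5 villus tip markers was 9.29 and 9.16 in CKIα KO/p53 KO, against 9.78 and 9.45 in CKIα Het/p53 KO. Of these 5, 0 passed without p53, with a median difference of -0.50. The villus tip mean with both genes present was 9.88 and 9.46 in CKIα KO, against 9.43 and 9.39 in CKIα Het. Without p21 it was 9.85 and 8.78 in CKIα KO/p21 KO, against 9.73 and 10.02 in CKIα Het/p21 KO. In bulk RNA, fewer cells of a type and less RNA per cell cannot be told apart, and the part of these markers in the vitamin gene differences was not tested.

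**Figure D3:**
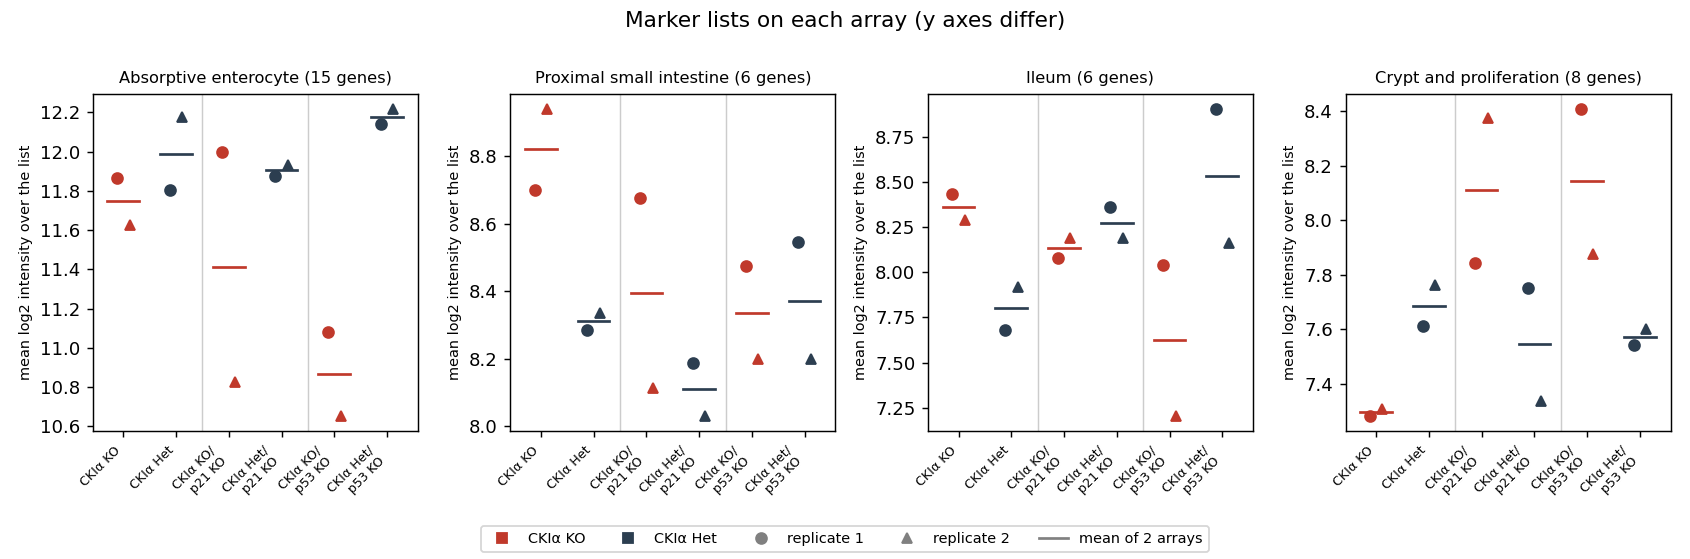
Mean log2 intensity over 4 marker lists (y axis) on the 12 tested arrays by genotype group (x axis), with circles for replicate 1, triangles for replicate 2 and bars for the mean of 2 arrays. Absorptive markers are lower in CKIα KO/p53 KO (10.65 and 11.08) than in CKIα Het/p53 KO (12.14 and 12.22), and the ileal list spans 7.21 to 8.90 over all arrays.

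Marker lists of gut regions were also read, since cubam is a receptor of the ileum and the folate carrier works mainly in the proximal gut. The stretch of gut itself is not in the labels, and these markers can change with genotype, so they do not measure region. The mean over 6 ileal markers was between 7.21 and 8.04 in CKIα KO/p53 KO and between 8.16 and 8.90 in CKIα Het/p53 KO. Of these 6, 2 were lower, beside 6.82% of all tested genes. Fabp6, the ileal bile acid-binding protein, was 8.79 on the first CKIα KO/p53 KO array and lowest of all 13 arrays on the second, against 10.88 and 8.81 in CKIα Het/p53 KO. The ileal bile acid carrier Slc10a2 was 8.47 and 8.61 in CKIα KO/p53 KO, inside the range of 9.08 and 7.87 in CKIα Het/p53 KO. With both genes present the ileal mean was 8.29 to 8.43 in CKIα KO and 7.68 to 7.92 in CKIα Het, and 0 of the 6 passed. The mean over 6 proximal markers was 8.70 to 8.94 in CKIα KO and 8.29 to 8.34 in CKIα Het, and 8.20 to 8.47 in CKIα KO/p53 KO and 8.20 to 8.55 in CKIα Het/p53 KO. Without p53, 2 of these 6 were higher and 1 lower, beside 11% and 6.82% of all tested genes. The proximal mean thus joins members that moved in opposite directions. Lct and Fabp1 belong to both the proximal and the absorptive list, so these lists are not independent. The mean over 5 colon markers was 5.17 to 5.49 in CKIα KO/p53 KO and 6.41 to 6.47 in CKIα Het/p53 KO. Of the 4 tested, 2 were lower, with a median of -1.25. The colon marker Car1 lay between 3.49 and 4.47 on the tested arrays, below the array medians, and Muc1 was too dim to test. The part of the regional markers in the Cubn, Amn and Slc46a1 differences was not tested.

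Markers of other cell types were counted as well. Without p53, 4 of 5 goblet and 6 of 7 enteroendocrine markers were lower in CKIα KO, beside 6.82% of all tested genes. In the same comparison 1 of 3 Paneth, 1 of 4 tuft and 1 of 5 myeloid markers were higher, beside 11% of all tested genes. The median difference was 0.48 over the Paneth, -0.14 over the tuft and -0.0031 over the myeloid list, so these single calls do not describe their lists. The lymphocyte list, which covers intraepithelial T cells, had a mean of 7.57 to 9.14 in CKIα KO/p53 KO and 7.77 to 9.16 in CKIα Het/p53 KO, and 0 of 6 passed. Its range was 7.08 to 8.52 in CKIα KO/p21 KO and 8.82 to 9.96 in CKIα Het/p21 KO. The mean over the endothelial list was between 3.99 and 4.48 on the tested arrays, and 1 of its 4 markers was lower without p53.

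A wider list of vitamin handling held 66 other genes, of which 57 were measured and 56 tested. Without p53, 7 of the 56 rose and 16 fell in CKIα KO, 41.1% called beside 17.8% of all tested genes, with a median of -0.12 beside -0.06. By vitamin, 1 rose and 6 fell of 13 for vitamin A, 2 rose and 2 fell of 12 for vitamin B12, 2 rose of 7 for folate, and 2 rose of 3 for vitamin C. Of 4 niacin and vitamin B6 genes 2 fell, and of 5 genes of the lipid route 3 fell.

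**Figure D4:**
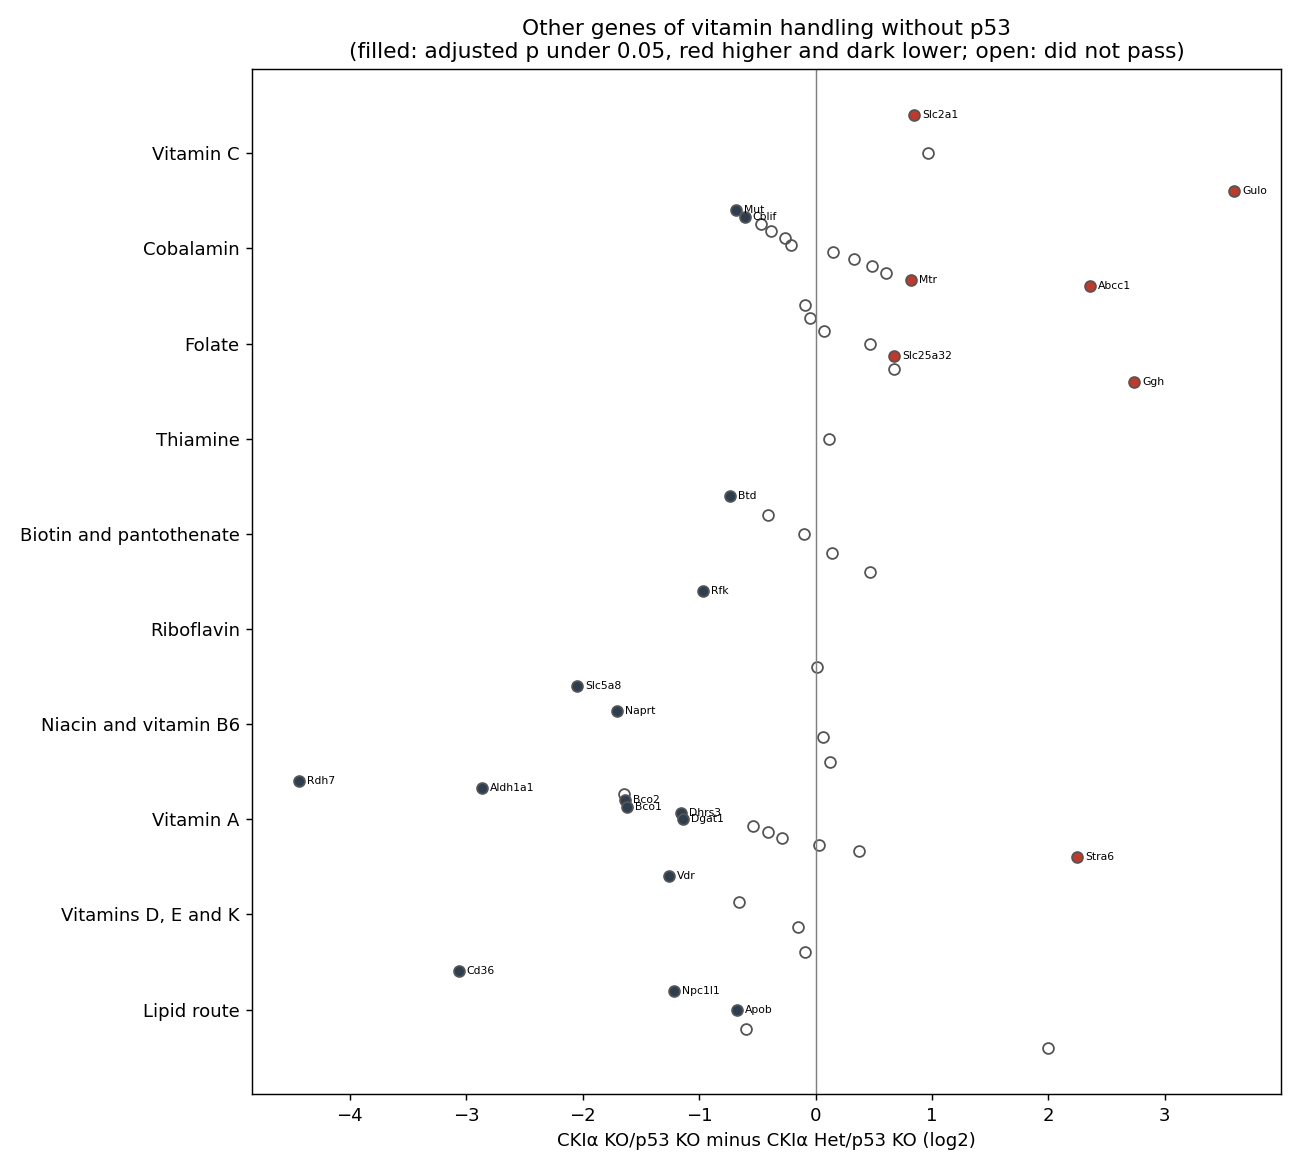
Log2 difference between CKIα KO/p53 KO and CKIα Het/p53 KO (x axis) for 56 other genes of vitamin handling, in rows by vitamin (y axis). Each point is a gene; filled points passed an adjusted p under 0.05 (7 higher in red, 16 lower in dark), and open points did not.

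The vitamin A genes with the smallest p ran in both directions. Stra6, the membrane receptor for retinol-binding protein, was 7.66 and 7.92 in CKIα KO/p53 KO, against 5.51 and 5.58 in CKIα Het/p53 KO (2.24 ± 0.26, adjusted p = 0.00507, limma). It lay between 5.33 and 6.36 on all other tested arrays. Stra6 was also the 1 gene of the 56 called for CKIα KO/p53 KO against CKIα KO (2.25 ± 0.26, adjusted p = 0.0137) and against CKIα KO/p21 KO (1.92 ± 0.26, adjusted p = 0.0208).

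Rdh7, a retinol dehydrogenase, was 3.72 and 4.06 in CKIα KO/p53 KO, against 8.49 and 8.15 in CKIα Het/p53 KO (-4.43 ± 0.68, adjusted p = 0.00763, limma). Aldh1a1, a retinaldehyde dehydrogenase that makes retinoic acid, was 8.88 and 8.50 in CKIα KO/p53 KO, against 11.91 and 11.20 in CKIα Het/p53 KO (-2.87 ± 0.40, adjusted p = 0.00727). Both CKIα KO/p53 KO values of Rdh7 lay below the array medians, like those of Lrat, so the size of its difference is uncertain there. The carotene oxygenases Bco1 (-1.62 ± 0.41, adjusted p = 0.0259) and Bco2 (-1.64 ± 0.41, adjusted p = 0.0252) fell as well, and were named after their values were seen.

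Among the other vitamins, Slc5a8, a sodium-coupled monocarboxylate carrier that also takes nicotinate, was 8.14 and 8.11 in CKIα KO/p53 KO, against 10.40 and 9.94 in CKIα Het/p53 KO (-2.04 ± 0.31, adjusted p = 0.00763, limma). Rfk, riboflavin kinase, was 11.20 and 10.83 in CKIα KO/p53 KO, against 12.06 and 11.90 in CKIα Het/p53 KO (-0.97 ± 0.17, adjusted p = 0.0100). Abcc1, an exporter of organic anions that moves vitamin B12 out of cells, was 7.61 and 8.32 in CKIα KO/p53 KO, against 5.46 and 5.75 in CKIα Het/p53 KO (2.36 ± 0.40, adjusted p = 0.00875).

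In the other backgrounds fewer of these genes passed. Without p21, Slc19a2, a thiamine carrier related to the unmeasured Slc19a3, was 7.74 and 8.08 in CKIα KO/p21 KO, against 6.78 and 6.46 in CKIα Het/p21 KO (1.29 ± 0.22, adjusted p = 0.0350, limma). Slc5a8 (-1.54, adjusted p = 0.0477) and Dhrs3 (-1.21, adjusted p = 0.0481), a retinaldehyde reductase, fell there. These 3 were 5.36% of the 56, beside 1.97% of all tested genes. With both genes present 0 of the 56 passed, beside 0.0239% of all tested genes, and Abcc3, an exporter that carries folate, had the smallest p (1.16 ± 0.16, adjusted p = 0.0803). Averaged over the backgrounds, 10 of the 56 rose and 15 fell, beside 15.5% of all tested genes called higher and 8.96% lower.

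The genes most like each member were found by the root mean square difference of log2 values over the 12 tested arrays, after each gene's own mean was subtracted. For Slc23a1 these were Slc5a4b (0.448), Susd2 (0.481) and Slc5a4a (0.512), where the median over all tested genes was 1.97. For Cubn they were Slc5a4b (0.491), the peptidase Ace (0.559) and Susd2 (0.584), against a median of 1.61. Slc23a1 and Cubn thus shared Slc5a4b and Susd2. Slc5a4a and Slc5a4b are close paralogs, and the probes could in part read both. For Amn they were Cndp2 (0.159), Mxd1 (0.176) and Nos1ap (0.186), and for Lrat Pbld2 (0.247), Sec14l2 (0.280) and Otc (0.289). For Tcn2 they were Sfxn1 (0.113), Mppe1 (0.124) and Nek6 (0.135). For Slc46a1 the nearest, Agmat (0.395), Ncoa4 (0.399) and Praf2 (0.401), were less close relative to its own spread of 0.708. These were chosen by likeness on the same arrays, so no test is given for them. Slc5a6 and Rbp2 had group means spanning less than 1 and were not searched.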

How the data were processed

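Per the labels' protocols, RNA from enterocytes was hybridized to Affymetrix arrays, and the authors extracted intensities with Affymetrix Expression Console 1.1 by RMA Sketch followed by normalization to median intensities. The deposited values of 35556 probe sets on 13 arrays were read as log2 intensities; the base of the logarithm is not stated and was taken from their range. The submitters' processing notes name the same tools. The number of arrays limits the precision.

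Probe sets with 1 gene symbol (21789) gave 19938 genes, with the probe set of the highest mean over the 12 tested arrays for each gene. Dim genes, below the 25th percentile of an array on all but 1 of the arrays or on all of them, were not tested. The 12 arrays were fitted together in limma 3.58.1 (R 4.3.3) with 1 coefficient for each of 6 groups and 6 residual degrees of freedom. The 12 comparisons were tested two-sided, with Benjamini-Hochberg adjustment over the 16721 genes of each and a threshold of 0.05. Errors are standard errors of the fit, and the p-values rest on the spread pooled over groups. The scripts were tested on simulated data. Replicate 1 was male and replicate 2 female in all 6 groups by Xist and Y-linked genes, but the labels tie the numbers to no shared animal, litter or day, so the fit without the replicate block was kept. The alternatives were other filters, quantile normalization, an intensity trend, a robust prior, array weights, the replicate block, adding the array with conflicting labels, and leaving out each array in turn.

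The members, the lists and the comparisons were chosen with earlier results of these data known. The rule for names took all members, up to 6 other vitamin genes per comparison with the smallest p, and for each member whose group means span at least 1 the 3 genes most like it. The other vitamin genes and marker lists came from general knowledge of their roles.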

Additional observations from a re-analysis of the deposited data

How the results depend on the processing

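Among 432 values of single members under the alternatives that kept every array, 419 kept their direction and their side of the threshold, 8 lost the call, 4 gained one and 1 turned. With 1 array left out the counts were 509 of 576 kept, 30 lost, 23 gained and 14 turned. With 2 arrays a group, each arm left with 1 array borrows its spread from the other groups. For the p53 knockout within CKIα KO gut, 2 members were called. It was 1 without a filter on dim genes, with a further quantile normalization, with an intensity trend and with array weights, where Amn missed the threshold, and 0 with the third array added to either group. With 1 array left out this count ran from 0 to 4. The other counts of members called ran from 0 to 1 with both genes present, from 0 to 7 without p21, from 0 to 6 without p53 and from 5 to 8 for the average. For the difference of the CKIα effect they ran from 0 to 3 without p53 against both genes present and from 0 to 4 without p53 against without p21. They ran from 0 to 3 for p21 loss in CKIα KO and from 0 to 4 for CKIα KO/p53 KO against CKIα KO/p21 KO. The cause was not tested. None of the values that turned was called. With the third array added as CKIα KO, Slc5a6 for the p53 knockout in CKIα KO was 0.0577. With 1 array left out, the ranges were -0.18 to 0.10 for Tcn2 with both genes present, -0.20 to 0.17 for Slc5a6 with both genes present, -0.81 to 0.083 for Slc46a1 for the difference of the CKIα effect without p53 against both genes present, -0.57 to 0.32 for Slc46a1 for the p53 knockout in CKIα KO, -0.0694 to 0.0543 for Slc5a6 for the p53 knockout in CKIα KO, -0.81 to 0.25 for Tcn2 without p21, -0.72 to 0.38 for Rbp2 without p21, -0.30 to 0.0661 for Rbp2 for the average and -0.11 to 0.0602 for Rbp2 without p53.

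The fit with the replicate number as a block gave the same counts of members called: 0 with both genes present, 0 without p21, 5 without p53, 6 for the average and 2 for the p53 knockout in CKIα KO. Over all genes the last comparison gave 218 higher and 120 lower with the block, against 78 and 38 without it. The number carries the animals' sex in all 6 groups, so the block also stands for sex. The correlation of replicate differences ran from -0.16 to 0.25 over 15 pairs of groups, with 5 over 0.1. Each measured member had 1 probe set, so the planned use of other probe sets gave no value. The lowest levels of Slc23a1, Lrat and Rdh7 lay near or below the array medians, where the deposited values hold no call of presence.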
